A study of Danio rerio with 9 samples.

Results

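Most of 8 listed endoplasmic reticulum genes, 7 chaperones and XBP1, had lower transcript levels in exposed whole zebrafish embryos than in vehicle embryos. These were 7 of the 8 under benzanthracene-7,12-dione (BaAQ) and 6 of the 8 under 1,9-benz-10-anthrone (BEZO). Of all tested genes 5.41% passed as lower under BaAQ and 3.35% under BEZO. The BEZO count fell to 2 without some single libraries. HSP90B1, PDIA4 and HYOU1 were also lower in BaAQ than in BEZO embryos, although HYOU1 passed in only 9 of 18 alternative settings. Between the compounds 2.27% of all tested genes passed as lower in BaAQ. The level of HSP90B1 under BaAQ was 1.79-fold lower than in Control. The gene list named 10 genes: HSP90B1, PDIA4, pdia3, pdia6, hspa5, hyou1, calr, canx, sdf2l1 and xbp1, printed from here on in capitals as the reference gene tables spell the matched ones. A gene of the count table belonged to the list when its symbol in those tables was one of these names in either case, and this match used no measured value. This matched 8 genes of the 32434 in the table, and all 8 were among the 18860 genes with enough reads to be tested. PDIA3 and HSPA5 (BiP) had no matching row and were not analysed here. This list and the later ones were chosen with earlier results of these data known. Their shares of passing genes, set beside those of all tested genes, are therefore a description and not independent support.

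The endoplasmic reticulum is where secreted and membrane proteins enter the secretory pathway and fold. HSP90B1 (GRP94) and HYOU1 (GRP170) are chaperones of the heat shock families that reside in its lumen, CALR and CANX hold newly glycosylated proteins by their sugar chains, and PDIA4 and PDIA6 form and exchange disulfide bonds. When unfolded proteins build up, the sensors IRE1, PERK and ATF6 start the unfolded protein response, which raises chaperone genes through XBP1 and ATF6. In fish embryos, cells that secrete much protein, such as those of the hatching gland, notochord, cartilage and liver, rely on this machinery.

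The 9 libraries came from wild-type 5D embryos, 3 vials per group with 20 embryos in 2 mL each, treated from 6 to 48 hours post fertilization (hpf) and collected whole at 48 hpf. BaAQ embryos received 10 µM of the quinone benzanthracene-7,12-dione, BEZO embryos received 10 µM of the ketone 1,9-benz-10-anthrone, and Control embryos received the vehicle alone. All 3 groups, Control included, carried 1% dimethyl sulfoxide and were held in the dark at a labelled 37 °C, which is unusual for zebrafish and could not be checked. The vials are described as independent biological replicates, and nothing ties a replicate number to one of the spawning days. Each library came from whole embryos of 1 vial, so fewer cells of a type and less RNA per cell cannot be told apart in any result here.

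Libraries held 8106613 to 14435626 reads, and 3 reads, the limit that a count of 0 allows, corresponded to 0.216 to 0.364 reads per 1000000 reads (CPM). Levels are in CPM of the TMM-scaled library total and are not scaled for transcript length, so each gene is compared with itself across groups. The chaperone genes and XBP1 had between 113 reads (SDF2L1) and 9838 reads (CANX) in a library, well above that limit. Genes were tested with edgeR's quasi-likelihood test on all 9 libraries, and a gene is said to pass where its p, adjusted by Benjamini and Hochberg's method over all 18860 genes, was under 0.05. Differences are log2 fold changes, with their standard errors, of BaAQ over Control, BEZO over Control and BaAQ over BEZO.

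BaAQ embryos had lower levels of 7 of the 8 genes than Control embryos, and the remaining gene, XBP1, did not pass. Among all tested genes 5.41% passed as lower and 4.82% as higher in this comparison. In the same 7 genes every BaAQ library lay below every Control library, which was the case for 14.1% of all tested genes. The median log2 fold change of the 8 genes was -0.56, beside 0.00 over all tested genes.

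Among the luminal chaperones, HSP90B1, which folds a restricted set of secreted and membrane proteins in mammals, had 341, 344 and 278 CPM in BaAQ libraries, against 555, 630.5 and 543 CPM in Control libraries. All 3 BaAQ libraries lay below the lowest Control library. The difference was -0.84 ± 0.09 (adjusted p = 1.22e-06, edgeR), the 68th smallest p of all genes tested. HYOU1, which in mammals also acts as a nucleotide exchange factor for BiP, had 75.2, 72.4 and 67.5 CPM in BaAQ libraries, against 115, 131 and 119 CPM in Control libraries. Its groups were likewise apart, with a difference of -0.76 ± 0.10 (adjusted p = 3.16e-05, edgeR). SDF2L1, a low-abundance partner of the BiP chaperone system in mammals, had 11.4, 13.8 and 12.2 CPM in BaAQ libraries, against 20.6, 17.7 and 16.6 CPM in Control libraries. Its difference was -0.55 ± 0.12 (adjusted p = 0.00387, edgeR).

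The disulfide isomerases fell as well. PDIA4 had 86.1, 75.9 and 77.8 CPM in BaAQ libraries, against 138, 148 and 139.6 CPM in Control libraries. This was a 1.77-fold lower level (-0.82 ± 0.09, adjusted p = 2.58e-06, edgeR), close to that of HSP90B1. PDIA6, an isomerase that in mammals also attenuates IRE1 and PERK signalling, had 89.8, 89.0 and 71.4 CPM in BaAQ libraries, against 117, 123 and 129 CPM in Control libraries. The smaller PDIA6 difference of -0.56 ± 0.10 also passed (adjusted p = 0.000641, edgeR).

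The lectin chaperones showed the smallest falls under BaAQ among the 7. CALR, the soluble one of the pair, had 185, 170.3 and 162 CPM in BaAQ libraries, against 228, 243 and 206 CPM in Control libraries. CANX, its membrane-bound counterpart, had 588, 588 and 546 CPM in BaAQ libraries, against 702, 686 and 714 CPM in Control libraries. CALR differed by -0.39 ± 0.07 (adjusted p = 0.0015) and CANX by -0.29 ± 0.06 (adjusted p = 0.00258, both edgeR), that is 1.31-fold and 1.22-fold lower levels.

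XBP1, the transcription factor whose messenger is spliced by IRE1 when unfolded proteins build up, had 185, 175 and 163 CPM in BaAQ libraries, against 186, 199 and 176 CPM in Control libraries. The ranges overlapped, and the difference of -0.10 ± 0.07 did not pass (95% interval -0.24 to 0.04, adjusted p = 0.412, edgeR). Reads were counted per gene, so the spliced and unspliced forms of its messenger were summed.

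**Figure D1:**
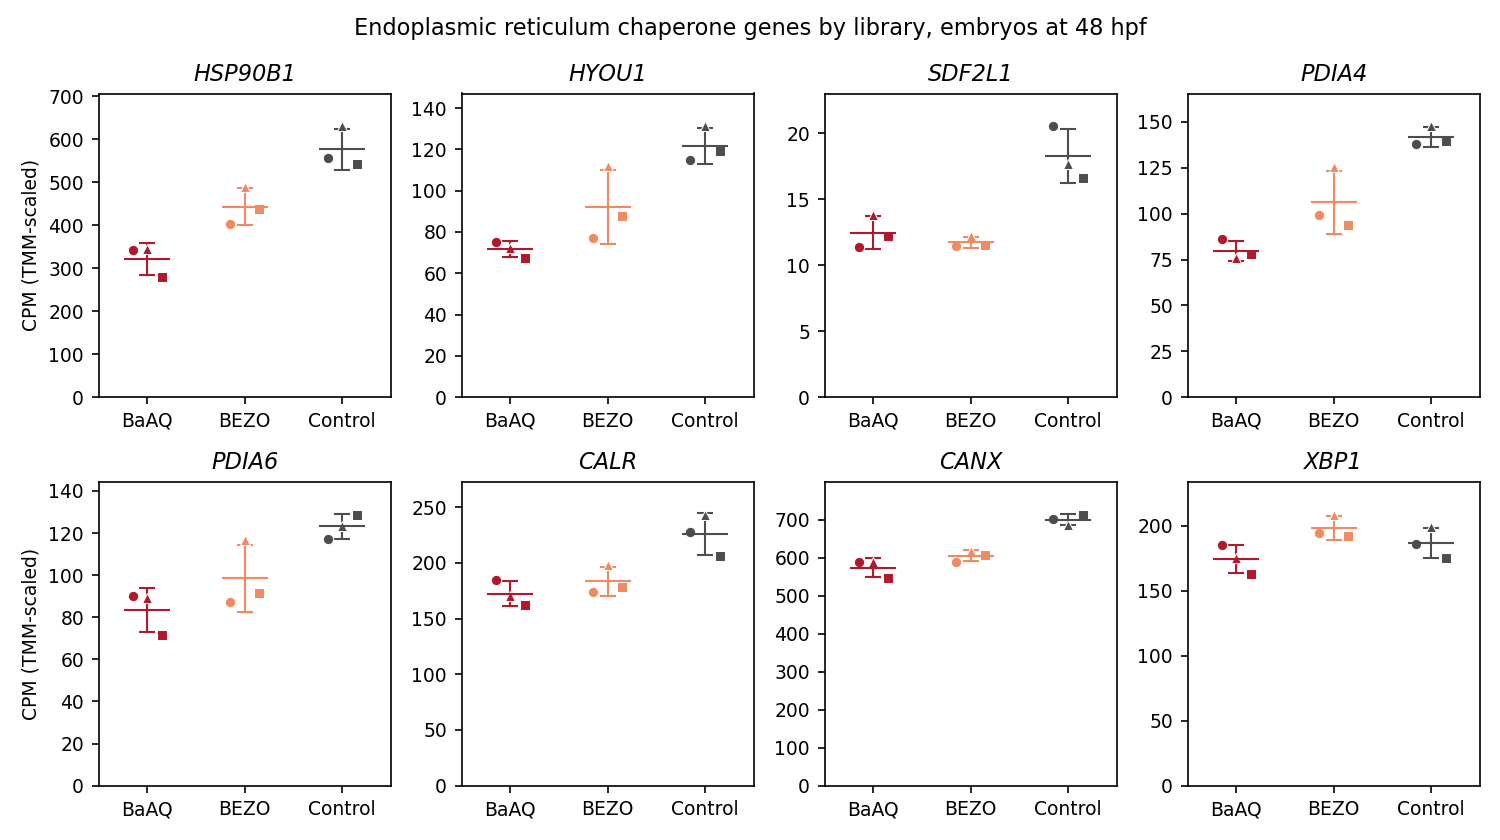
Levels in CPM of the 7 chaperone genes and XBP1 in each of the 9 libraries, one panel per gene with its own linear axis from 0, with circles, triangles and squares for libraries 1, 2 and 3 of a group, a horizontal line at their mean and whiskers of 1 SD. In 7 panels the BaAQ points lie below all Control points, and in the XBP1 panel the BaAQ and BEZO points each overlap with the Control points.

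BEZO embryos had lower levels of 6 of the 8 genes than Control embryos, where 3.35% of all tested genes passed as lower and 3.09% as higher. PDIA6 and XBP1 did not pass. In 7 of the 8 genes, PDIA6 included, every BEZO library lay below every Control library, which held for 12.4% of all tested genes. The median log2 fold change of the 8 genes was -0.35. The BEZO and BaAQ comparisons share the 3 Control libraries, so a lower level in both does not count as separate support.

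SDF2L1 differed most under BEZO, with 11.5, 12.2 and 11.5 CPM in BEZO libraries, against the 3 Control values given above. This was a 1.55-fold lower level (-0.63 ± 0.12, adjusted p = 0.00169, edgeR). PDIA4 had 99.0, 126 and 93.9 CPM in BEZO libraries, all below Control, with a difference of -0.42 ± 0.09 (adjusted p = 0.00431, edgeR). HSP90B1 had 403, 489 and 437 CPM in BEZO libraries, a 1.30-fold lower level than in Control (-0.38 ± 0.08, adjusted p = 0.00761, edgeR). These falls in HSP90B1 and PDIA4 were about the size of that of HYOU1, which had 76.9, 112 and 87.8 CPM in BEZO libraries (-0.40 ± 0.10, adjusted p = 0.0147, edgeR).

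CALR had 174, 198 and 179 CPM in BEZO libraries, a difference of -0.30 ± 0.07 (adjusted p = 0.0148, edgeR). CANX had 589.6, 618 and 608 CPM in BEZO libraries, the smallest of the 6 falls, at -0.21 ± 0.06 (adjusted p = 0.032, edgeR). Both stayed below all Control libraries. PDIA6 had 87.4, 117 and 91.5 CPM in BEZO libraries, with its highest library touching the lowest Control library at 3 digits, and its difference of -0.32 ± 0.10 missed the threshold (95% interval -0.52 to -0.12, adjusted p = 0.0508, edgeR). XBP1 had 194, 209 and 192 CPM in BEZO libraries and overlapped with Control (0.09 ± 0.07, 95% interval -0.05 to 0.23, adjusted p = 0.532, edgeR).

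The count under BEZO depended on single libraries. It was 2 of 8 without the second Control library or without the first BEZO library, 3 without the third BEZO library, and 4 without the first Control library. PDIA4 and SDF2L1 passed under each of 18 alternative settings, while HSP90B1 passed under 16, HYOU1 under 15, CALR under 14, CANX under 12 and PDIA6 under 9. Under BaAQ the same 7 genes passed under each of the 18 settings.

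**Figure D2:**
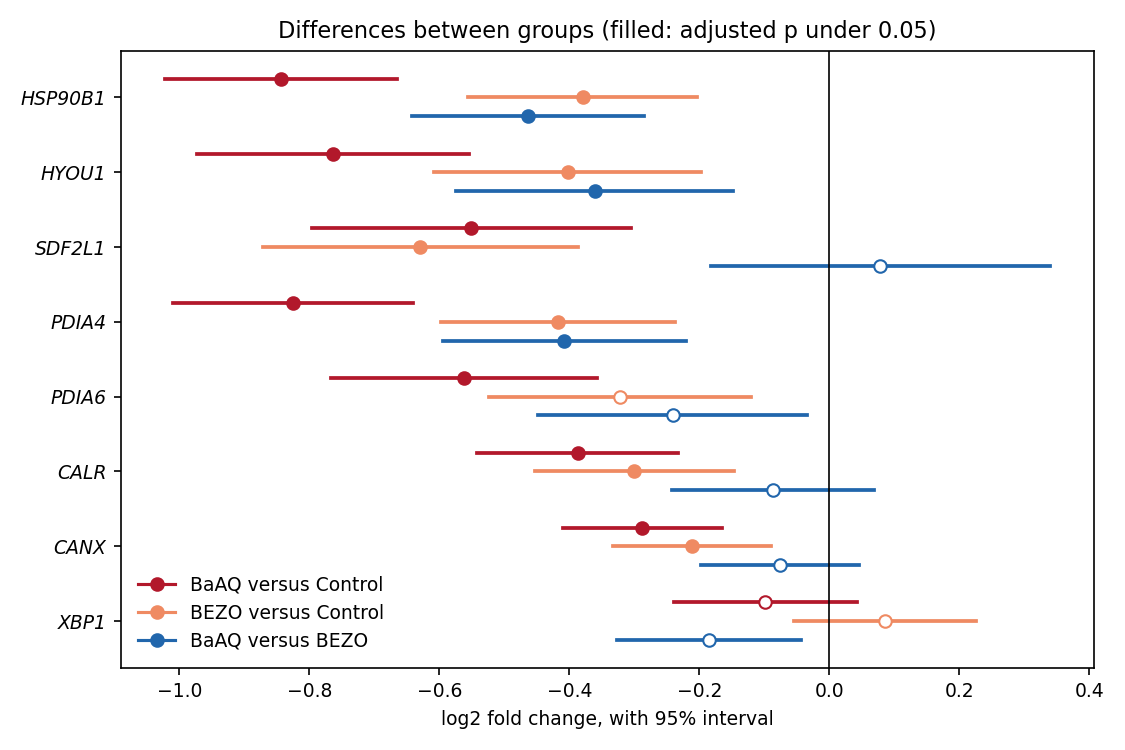
Log2 fold changes with 95% intervals for each gene in the 3 comparisons, BaAQ over Control (dark red), BEZO over Control (orange) and BaAQ over BEZO (blue), with filled circles where the gene passed. The intervals of the 7 chaperone genes lie below 0 against Control for both compounds, and those of XBP1 cross 0 there.

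Both compounds are oxygenated polycyclic aromatic ketones given at the same dose over the same hours, a quinone in BaAQ and a single ketone in BEZO, so their levels were compared directly. BaAQ embryos had lower levels than BEZO embryos of 3 of the 8 genes, HSP90B1, PDIA4 and HYOU1, where 2.27% of all tested genes passed as lower and 2.56% as higher. HSP90B1 differed by -0.46 ± 0.09 (adjusted p = 0.00207), PDIA4 by -0.41 ± 0.09 (adjusted p = 0.00948) and HYOU1 by -0.36 ± 0.10 (adjusted p = 0.0455, all edgeR). In 5 genes, these 3 with CANX and XBP1, every BaAQ library lay below every BEZO library, as in 11.1% of all tested genes.

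The difference in HSP90B1 passed under each of the 18 alternative settings. That in PDIA4 passed under 17 and lost its call only without the second BEZO library (-0.27, adjusted p = 0.0724, edgeR). That in HYOU1 passed under 9, and its adjusted p was 0.292 without the same library (-0.19) and between 0.0515 and 0.133 in the other 8 settings that ended its call. These were fits without each of the Control and BaAQ libraries in turn, without the third BEZO library, or of the 2 compounds alone.

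The other 5 genes did not pass between the compounds. SDF2L1 differed by 0.08 ± 0.12 (95% interval -0.18 to 0.34), CANX by -0.08 ± 0.06 (-0.20 to 0.05) and CALR by -0.09 ± 0.07 (-0.24 to 0.07). These intervals leave room for differences in either direction, and the p-values do not show that the compounds act alike on these genes. For PDIA6 the difference was -0.24 ± 0.10 (-0.45 to -0.03, adjusted p = 0.196, edgeR), and for XBP1 it was -0.19 ± 0.07 (-0.33 to -0.04, adjusted p = 0.137, edgeR). Both intervals leave out 0 before adjustment over all genes and neither gene passed after it.

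Each of HSP90B1, PDIA4, HYOU1 and CANX had its 3 BaAQ libraries lowest, its 3 BEZO libraries between and its 3 Control libraries highest, an order found in 0.992% of all tested genes. It was also found in 8 of the 45 other folding genes described below (17.8%). In CANX the highest BaAQ library (588.0 CPM) lay just below the lowest BEZO library (589.6 CPM). CALR and PDIA6 followed the same order of group means only. That order of means held for 66.7% of the other folding genes and 20% of all tested genes. SDF2L1 had its lowest mean under BEZO, 11.7 ± 0.427 CPM, beside 12.5 ± 1.26 CPM under BaAQ and 18.3 ± 2.04 CPM in Control (SD, n = 3 each), and its BaAQ and BEZO libraries overlapped. XBP1 had its highest mean under BEZO. Summed over the 8 genes, the level was 1489 ± 97.6 CPM in BaAQ, 1738 ± 127 CPM in BEZO and 2094 ± 74.0 CPM in Control (SD, n = 3 each), or 0.151%, 0.175% and 0.205% of all reads.

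Among replicates of a group the genes were often high or low in the same library. The second BEZO library was the highest of its group in 8 of 8 genes, beside 35.5% of all tested genes, and the first BEZO library was the lowest in 6 of 8. Among the 45 other folding genes described below, each of these held for 60%. In HYOU1 the second BEZO library reached 112 CPM, against 76.9 and 87.8 CPM in the other 2 BEZO libraries. The third BaAQ library was the lowest of its group in 6 of 8 genes, beside 71.1% of the other folding genes and 37.4% of all tested genes. Any difference among vials that these libraries share was not tested as a source of the group differences.

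Other genes of the endoplasmic reticulum were followed through lists by role. Of 45 other tested folding genes, 20 fell, 0 rose and 25 did not pass under BaAQ, with a median log2 fold change of -0.28. In this comparison 5.41% of all tested genes passed as lower. DNAJB11, a co-chaperone of BiP, had 47.2, 49.3 and 41.6 CPM in BaAQ libraries, against 67.6, 75.6 and 69.9 CPM in Control libraries (-0.63 ± 0.09, adjusted p = 7.50e-05, edgeR). MANF, a secreted stress-inducible protein of the endoplasmic reticulum, differed by -0.72 ± 0.11 (adjusted p = 0.000194), the prolyl isomerase FKBP9 by -0.52 ± 0.07 (adjusted p = 4.00e-05) and the thioredoxin-like isomerase TXNDC5 by -0.51 ± 0.07 (adjusted p = 8.79e-05, all edgeR).

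Under BEZO, 7 of the same 45 folding genes fell, 0 rose and 38 did not pass, with a median of -0.21. Of all tested genes 3.35% passed as lower there. The co-chaperone dnajc3a differed by -0.63 ± 0.14 (adjusted p = 0.00956), CRELD2 by -0.39 ± 0.10 (adjusted p = 0.0215) and DNAJB11 by -0.36 ± 0.09 (adjusted p = 0.0148, all edgeR). The thioredoxin-related transmembrane gene TMX3 (ENSDARG00000038894) was lowest under BEZO. It had 7.89, 6.80 and 6.26 CPM in BaAQ libraries, 3.85, 2.41 and 2.86 CPM in BEZO libraries and 9.32, 9.81 and 11.7 CPM in Control libraries. Here BEZO was the lower of the compounds (BaAQ over BEZO 1.19 ± 0.20, adjusted p = 0.000617, edgeR). A TMX2 copy (ENSDARG00000079122) ran in the same order, with means of 3.73 CPM in BaAQ, 2.29 CPM in BEZO and 4.44 CPM in Control. It did not pass between the compounds (adjusted p = 0.179, edgeR). The related gene tmx3b averaged 8.59, 8.13 and 8.35 CPM in the same groups and passed in no comparison. TMX3 was the only 1 of the 45 folding genes that passed as higher in BaAQ than in BEZO. A single call is near the 2.56% of all tested genes that did so. Another 4 folding genes passed as lower, beside 2.27% of all tested genes. One of these 4 was SERPINH1 (ENSDARG00000075954), the collagen chaperone HSP47, with 88.3, 87.4 and 78.7 CPM in BaAQ libraries and 98.6, 120.3 and 104 CPM in BEZO libraries (-0.34 ± 0.08, adjusted p = 0.00987, edgeR). Another was a more abundant SERPINH1 copy (ENSDARG00000019949), which averaged 351 CPM in BaAQ and 426 CPM in BEZO (-0.28 ± 0.08, adjusted p = 0.0443, edgeR). Neither copy passed against Control under either compound.

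Lists for the steps before and after folding had medians nearer to 0. Of 30 genes of translocation into the endoplasmic reticulum and N-glycosylation, 11 fell and 0 rose under BaAQ (median -0.20), and 4 fell and 0 rose under BEZO (median -0.12). SRPRA, a subunit of the signal recognition particle receptor, had 42.8, 44.8 and 40.3 CPM in BaAQ libraries and 42.8, 51.4 and 45.3 CPM in BEZO libraries, against 56.2, 64.1 and 64.6 CPM in Control libraries. Both compounds thus lay below Control in SRPRA. Of 31 genes of transport to the Golgi, 12 fell and 0 rose under BaAQ (median -0.18) and 1 fell and 0 rose under BEZO (median -0.12). They include kdelr2a, a receptor that returns escaped chaperones (-0.34 ± 0.06, adjusted p = 0.00071), and LMAN1, a cargo receptor (-0.63 ± 0.12, adjusted p = 0.00167, both under BaAQ, edgeR). Of 25 genes of the degradation of misfolded proteins, 2 fell and 0 rose under each compound, with medians of 0.00 under BaAQ and -0.01 under BEZO. These 2 of 25 are near the 5.41% (BaAQ) and 3.35% (BEZO) of all tested genes that passed as lower. The 1 of 31 Golgi transport genes under BEZO is likewise near the 3.35%. The degradation gene HM13 was among the 2 that fell under each compound.

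Of 14 sensors and factors of the unfolded protein response, 1 fell and 0 rose under BaAQ, where 10.2% of all tested genes passed in either direction. This was CREB3L1 (-0.33 ± 0.10, adjusted p = 0.0341, edgeR). Under BEZO, where 3.09% of all tested genes passed as higher, 2 rose and 0 fell. These were atf6 (0.22 ± 0.07, adjusted p = 0.0476) and creb3l3b (0.83 ± 0.24, adjusted p = 0.0406, both edgeR). Levels of creb3l3b were low, at 3.18, 3.24 and 3.78 CPM in BEZO libraries and 2.65, 1.66 and 1.60 CPM in Control libraries. The related gene creb3l3a ran the other way under BEZO and did not pass (-0.34 ± 0.14, adjusted p = 0.158, edgeR). The sensor ern1 (IRE1) averaged 31.3 ± 7.19 CPM in BaAQ, 30.3 ± 1.13 CPM in BEZO and 30.4 ± 3.24 CPM in Control, and EIF2AK3 (PERK) averaged 31.5 ± 1.27, 31.0 ± 1.45 and 33.8 ± 1.88 CPM in the same groups (SD, n = 3 each). Neither passed in any comparison. These are transcript levels, and the activity of the sensor proteins was not measured.

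Genes known as targets of the PERK arm and the integrated stress response ran the other way. Of 11 tested, 6 rose and 0 fell under BaAQ (median 0.44), and 9 rose and 0 fell under BEZO (median 0.51). Of all tested genes 4.82% passed as higher under BaAQ and 3.09% under BEZO. ATF3, a stress-induced transcription factor, had 14.7, 23.7 and 25.3 CPM in BaAQ libraries and 17.5, 24.6 and 22.5 CPM in BEZO libraries, against 9.01, 8.51 and 9.79 CPM in Control libraries. Both exposed groups lay above all Control libraries, 2.30-fold in BaAQ (adjusted p = 9.33e-05) and 2.35-fold in BEZO (1.24 ± 0.17 on the log2 scale, adjusted p = 8.78e-05, both edgeR). DDIT3 (CHOP) rose by 0.44 ± 0.10 under BaAQ (adjusted p = 0.00473) and 0.46 ± 0.09 under BEZO (adjusted p = 0.00426, both edgeR). The pseudokinase gene TRIB3 was lower in BaAQ than in BEZO (-0.33 ± 0.09, adjusted p = 0.0316), as was CHAC1, which degrades glutathione (-0.42 ± 0.11, adjusted p = 0.0311, both edgeR). No gene of this list passed as higher there. Between the compounds 2.27% of all tested genes passed as lower and 2.56% as higher.

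**Figure D3:**
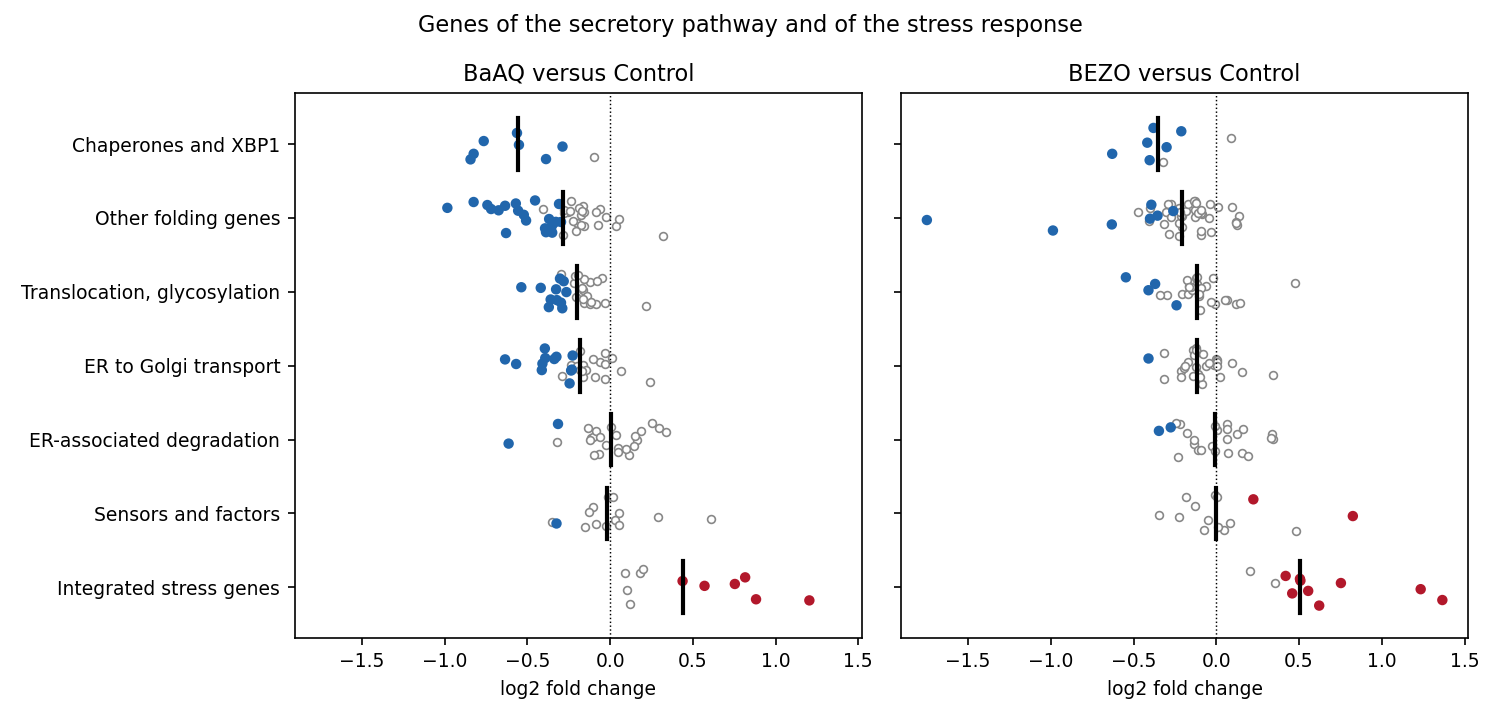
Log2 fold changes of the tested genes of each list for BaAQ over Control (left) and BEZO over Control (right), with 1 point per gene, filled blue where it passed as lower, filled red where it passed as higher and open where it did not pass, and a black line at the median of the list. Folding, translocation and Golgi transport genes lie mostly below 0, and the integrated stress genes lie above 0.

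The genes most like the chaperones were sought among 8717 other genes with a symbol and a mean of at least 10 CPM, by the root mean square difference over the 9 libraries from the median centred log2 profile of the 7 genes that passed under BaAQ. The 5 closest were HM13, a signal peptide peptidase, at 0.0393, DNAJB11 at 0.0489, MANF at 0.0713, TXNDC5 at 0.0750 and SSRP1, a histone chaperone subunit of the nucleus, at 0.0788. HM13 had 53.0, 59.9 and 51.0 CPM in BaAQ libraries and 61.6, 73.9 and 61.2 CPM in BEZO libraries, against 85.4, 84.4 and 80.5 CPM in Control libraries. As in HSP90B1, its 3 groups did not overlap. HM13 was picked for its likeness over these same 9 libraries, so this is not separate support for the pattern.

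**Figure D4:**
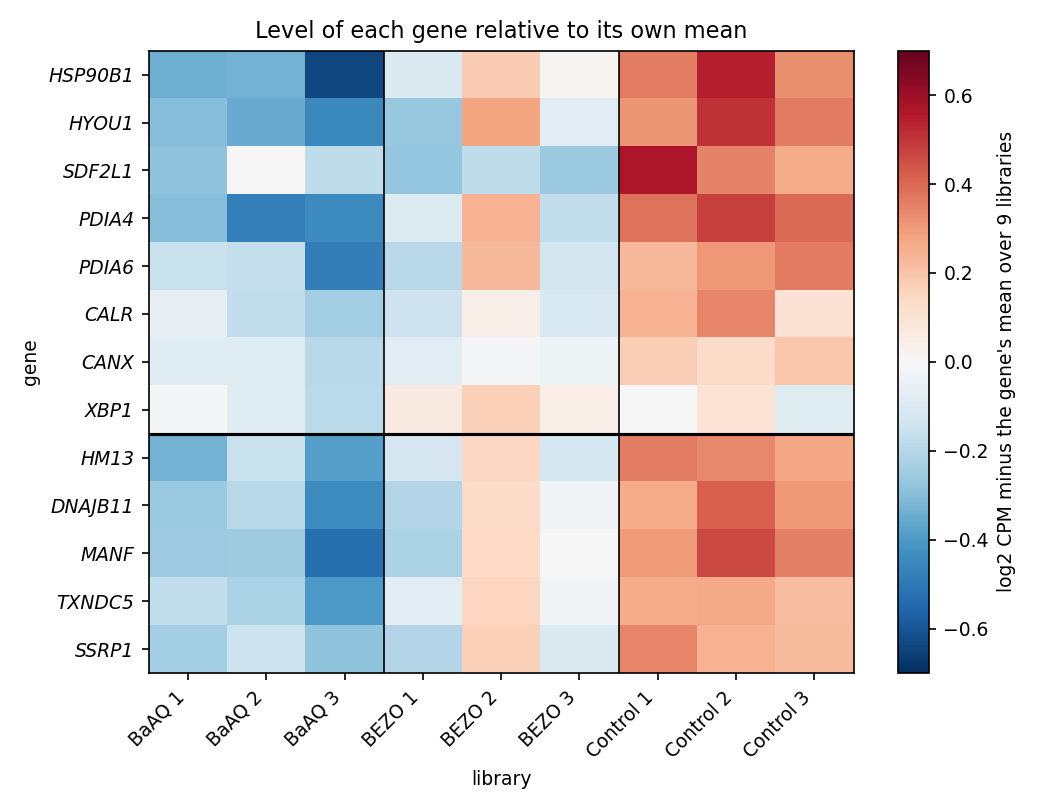
Log2 CPM in each library minus the mean of the gene over the 9 libraries, for the 7 chaperone genes and XBP1 (above the black line) and the 5 genes most like them (below it), with BaAQ, BEZO and Control libraries in columns. Values run lowest in BaAQ and highest in Control for HSP90B1, PDIA4, HYOU1 and CANX, and the second BEZO library is the highest of its group in all 8 rows above the line.

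Markers of some secreting tissues were also lower in exposed embryos, beside the shares of all tested genes given above. Of 16 cartilage genes 11 fell and 0 rose under BaAQ, and 4 fell and 2 rose under BEZO. Their summed level was 4679 to 5457 CPM in BaAQ, 5714 to 6195 CPM in BEZO and 6601 to 6833 CPM in Control, an order also seen in HSP90B1. COL10A1, a collagen of cartilage and bone, fell by 1.10 ± 0.11 under BaAQ (adjusted p = 9.68e-07, edgeR). It did not follow that order, with 80.4, 67.8 and 90.5 CPM in BEZO libraries and 82.7, 74.2 and 72.6 CPM in Control libraries. MATN3 was 1 of the 2 that rose under BEZO (0.53 ± 0.10, adjusted p = 0.00223, edgeR). Of 11 notochord genes 3 fell and 0 rose under each compound, with summed levels of 838 to 1052 CPM in BaAQ, 1034 to 1134 CPM in BEZO and 1178 to 1244 CPM in Control. Most of the notochord sum came from col9a1b and COL9A2, which averaged 330 and 278 CPM in BaAQ. COL9A1 and COL9A2 were among the 3 genes that fell under each compound. Whether the reads of these collagen genes came from the notochord was not tested. A copy of SHH (ENSDARG00000068567) had higher means under both compounds and did not pass. It averaged 35.2 CPM in BaAQ, 36.7 CPM in BEZO and 30.5 CPM in Control. The notochord's defining transcription factor genes noto and TBXT stayed under 1 CPM in every group mean. In BaAQ libraries 1, 2 and 3 the 8 genes summed to 1561, 1528 and 1378 CPM. The cartilage sums (5457, 5244 and 4679 CPM) and notochord sums (1052, 1020 and 838 CPM) ran in that order too. Among BEZO libraries the cartilage and notochord sums did not follow the chaperones. The second BEZO library had the lowest cartilage sum (5714 CPM) and the lowest notochord sum (1034 CPM) of its group, and the highest sum of the 8 genes (1879.7 CPM).

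Of 13 liver genes 8 fell and 0 rose under BaAQ and 4 fell and 1 rose under BEZO, with summed levels of 3141 to 3812 CPM in BaAQ, 3624 to 3796 CPM in BEZO and 3704 to 4165 CPM in Control. The liver sums were mostly apoa1a, which did not pass under either compound. It averaged 2275 CPM in BaAQ, 2135 CPM in BEZO and 2281 CPM in Control. The liver marker fabp10a averaged 0.512 CPM in BaAQ, 0.740 CPM in BEZO and 0.959 CPM in Control, near the limit of detection. The gene uox averaged 0.962 CPM in BaAQ, 1.86 CPM in BEZO and 5.63 CPM in Control. It differed by -2.55 ± 0.26 under BaAQ and -1.59 ± 0.22 under BEZO, and passed in both. For agt the differences were -1.25 ± 0.10 and -0.44 ± 0.09, and both passed. The 1 that rose under BEZO was CP (0.51 ± 0.08), which fell under BaAQ. Of 9 genes of mucous and secretory epidermis 1 fell and 0 rose under BaAQ, and 1 fell and 1 rose under BEZO, single calls beside the 10.2% (BaAQ) and 6.44% (BEZO) of all tested genes that passed. Their sum of 11324 to 13022 CPM in BaAQ, 15972 to 16910 CPM in BEZO and 15525 to 16418 CPM in Control was mostly the keratin gene krt4, and itln1 (ENSDARG00000007534) and itln3 had 6 and 9 reads over all libraries. A further copy, ITLN1 (ENSDARG00000095082), averaged 1.29 CPM in BaAQ, 1.803 CPM in BEZO and 0.946 CPM in Control.

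No hatching gland gene passed as lower. Of 6 tested, 1 rose under BaAQ, a single call where 4.82% of all tested genes passed as higher, and 0 passed under BEZO. The sums were 218 to 250 CPM in BaAQ, 208 to 238 CPM in BEZO and 196 to 221 CPM in Control. CD63, PRDM1 and tinagl1 made up most of these sums and did not pass under either compound. Among the gland's protease genes, he1.2 was the 1 that rose under BaAQ. It had 26.4, 43.1 and 43.9 CPM in BaAQ libraries, against 23.5, 23.4 and 25.9 CPM in Control libraries (0.62 ± 0.14, adjusted p = 0.0075, edgeR). The protease genes hce2l1 and hce2l2 had 2 and 13 reads over all libraries. Another listed gene, ctslb, ran the other way, with means of 13.6 CPM in BaAQ, 16.3 CPM in BEZO and 18.3 CPM in Control. It did not pass. Exocrine pancreas genes summed to 11.6 to 13.4 CPM in BaAQ, 11.0 to 13.9 CPM in BEZO and 10.6 to 14.8 CPM in Control, with prss1 near 1 CPM in each group, and 0 of the 3 tested passed. The part of the cartilage, notochord, liver and epidermis values in the chaperone result was not tested.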

How the data were processed

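The deposited table holds raw counts of reads per Ensembl gene for 9 libraries of polyadenylated RNA, with no normalization; per the submitters' processing notes CASAVA 1.8, FastQC, TopHat2, HTSeq and edgeR were used with the build Zv9. The strand setting is not given in the sources used here, so reads of overlapping or antisense genes cannot be told apart. Symbols came from the reference gene tables by identifier (20769 of 32434), and coordinates were not used.

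The tests used edgeR 4.0.16 under R 4.3.3 (filterByExpr, TMM, 3 group means over 9 libraries, 6 residual degrees of freedom). Intervals are 95% intervals of the fit and cover the spread between vials only. Genes named from a list are up to 4 with the smallest p past the threshold per comparison, and some others are named with values after these were seen. The genes and lists were chosen with earlier results of these data known. Where 1 symbol stood for several gene copies, a list counts each copy. The fit was also run on data simulated from its own estimates of the spread, which cannot show that the calls made here hold. Alternatives were other size factors and filters, DESeq2 1.42.0, a replicate block, fits of 2 groups and leaving out each library; library totals without TMM, TMM without these genes and thinned libraries were chosen after seeing the data.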

Additional observations from a re-analysis of the deposited data

How the results depend on the processing

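Under 18 alternatives no fold change of the 8 genes turned direction. Leaving out 1 library gave 1276 (without the third Control library) to 1992 genes passing between BaAQ and Control, against 1929, 761 to 1502 between BEZO and Control, against 1214, and 531 to 883 between BaAQ and BEZO, against 912. Between BEZO and Control the 8 genes then gave 2 to 7 calls against 6, and between BaAQ and BEZO 1 to 3 against 3. The lowest counts came without the third (761) and first (796) BEZO libraries, and without the second (531). Without a filter on low counts 1389 genes passed between BaAQ and BEZO. The mean share of reads of the 8 genes in Control was 0.209% on TMM-scaled totals, against 0.205%. Without TMM the calls against Control split into 1352 higher and 742 lower under BaAQ, against 909 and 1020, and 766 higher and 507 lower under BEZO, against 582 and 632, while the median of all genes shifted by 0.05 and 0.04; 7 and 5 of the 8 genes passed. The cause of these changes was not tested.

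Same-numbered libraries did not deviate together (correlations -0.0362 to 0.0288 in 9 pairs), so no pairing by number was seen. A pairing confined to some genes could be missed by these correlations. With the replicate number as a block, 1916, 1184 and 839 genes passed in the comparisons of BaAQ with Control, BEZO with Control and BaAQ with BEZO, and 7, 7 and 3 of the 8 genes. DESeq2 called the same numbers of the 8 genes, of 1507, 980 and 710 in all.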
